A study of Mus musculus with 8 samples.

Results

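The genes described here are 9 transcription factors that establish or maintain macrophages: Spi1, Runx1, Ikzf1, Irf5, Irf8, Maf, Mitf, Tfec and Tfeb. They were taken by gene symbol from the deposited expression table. All 9 had a row among its 16505 genes, and all 9 were among the 13797 genes tested. Messenger RNA was sequenced from epididymal white adipose tissue, the visceral fat pad beside the epididymis, of C57BL/6 mice fed a high fat diet for 12 weeks. The 8 samples were 4 wild-type (WT) mice and 4 that carry a Mir181 double knockout, called the knockout below. The fat, the diet and the strain were shared by both groups, and no lean or chow-fed group was analysed here. The labels name neither the deleted miR-181 loci nor the tissue or cell type in which they were deleted, and give no age and nothing on shared litters or cages. The p-values therefore cover only how far these 8 samples spread, part of which may be technical.

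Macrophages enter fat in obesity, gather around dying fat cells and take up their lipid into lysosomes. PU.1, the product of Spi1, opens the enhancers of macrophage genes and works there with the RUNX factor Runx1, with the interferon regulatory factors and with MAF factors. Ikzf1 encodes Ikaros, a zinc finger factor shared by lymphoid and myeloid cells. Irf5 acts below Toll-like receptors in inflammatory macrophages, and Irf8 sets the balance of monocytes, macrophages and dendritic cells. Mitf, Tfec and Tfeb belong with Tfe3 to the MiT/TFE family of basic helix-loop-helix leucine zipper factors, which bind E-box sequences and switch on genes of lysosomes and autophagy. miR-181 microRNAs lower messenger RNAs that carry a match to their seed, which is why the seed matches in the members are shown first.

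The mature miR-181 microRNAs share 1 seed (bases 2 to 8, in capitals), so a knockout of any of their loci concerns the same target letters. The sequences are from RefSeq (GRCm38.p6).

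miR-181a-5p: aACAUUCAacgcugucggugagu

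miR-181b-5p: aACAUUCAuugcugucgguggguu

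miR-181c-5p: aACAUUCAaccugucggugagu

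miR-181d-5p: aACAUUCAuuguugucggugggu

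The letters that pair with this seed, TGAATGT, occur in the longest annotated 3′ UTR of 2 of the 9 members in GENCODE mouse release M21. Runx1 holds 2 matches in 4189 bases, and Mitf holds 1 in 3174 bases. The other 7 members hold none. Their 3′ UTRs run from 362 bases in Spi1 to 4316 bases in Maf. Among the 12855 tested genes with an annotated 3′ UTR, 18.4% hold the match, and 32.8% of those with at least 1500 bases do. The 3 sites are given below with 10 bases on each side, in the sense of the transcript, with the seed match in capitals. A match is a description of the letters and was not tested as a binding site.

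Runx1, bases 1075 to 1081 of the 3′ UTR: cccaaaccacTGAATGTgatttttaaa

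Runx1, bases 3618 to 3624 of the 3′ UTR: ctaggagaaaTGAATGTgcaaaaaaaa

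Mitf, bases 827 to 833 of the 3′ UTR: gaaatggaaaTGAATGTcctctctgag

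Levels are given as log2 CPM, the log2 of a gene's reads (with 0.5 read added) scaled to the total of its library. A change is the log2 level in the knockout less that in WT, with the standard error from limma. Each group has n = 4 and is given by its mean ± SD. The libraries held 3736881 to 76838584 reads. The ribosomal RNA genes Rn18s and Rn28s1 took over 1% of reads in WT replicates 1, 3 and 4 and knockout replicate 1, and at most 0.334% in the other 4 libraries. Epididymis transcripts took 1.24%, 2.12% and 0.986% of reads in WT replicate 2 and knockout replicates 2 and 4, and at most 0.0042% elsewhere. The tissue label was met by fat cell markers, with all 7 of 7 measured at 0.187% to 0.337% of reads in WT and 0.757% to 1.19% in the knockout. Over all tested genes the median change was 0.18 with scaling to library totals and 0.03 after each library was centred on its median. Higher genes made up 58.6% of calls with total scaling and 46.4% with centring. No miR-181 transcript was among the rows used here, and the deletion itself was not examined.

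Most of the lineage factors were lower in the knockout fat. Of the 9 members, 8 fell and 0 rose at an adjusted p under 0.05 in limma, where 16.1% of all tested genes fell and 22.7% rose. At an unadjusted p under 0.05 in limma, 9 were lower and 0 higher, and the share of all tested genes at that limit is not given here. Voom on whole reads also called 8 lower and 0 higher, where 2964 of the 13797 tested genes fell and 2414 rose. The 4 knockout values lay below all 4 WT values for the same 8 genes, which was so for 16.6% of all tested genes. The median change of the 9 was −1.61. After centring the 8 calls remained, with changes of −2.66 to −1.29, where 2825 of the 13797 tested genes fell and 2444 rose. In the 4 libraries with less ribosomal RNA alone (1 WT and 3 knockout) 0 of 13797 genes passed (1500 lower and 1679 higher at an unadjusted p under 0.05). That fit takes its spread from the 3 knockout libraries, with the lone WT library assumed to vary like them, so its values are given without a reading. The 9 member differences there ran from −2.78 (Spi1) to −0.37 (Maf).

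**Figure D1:**
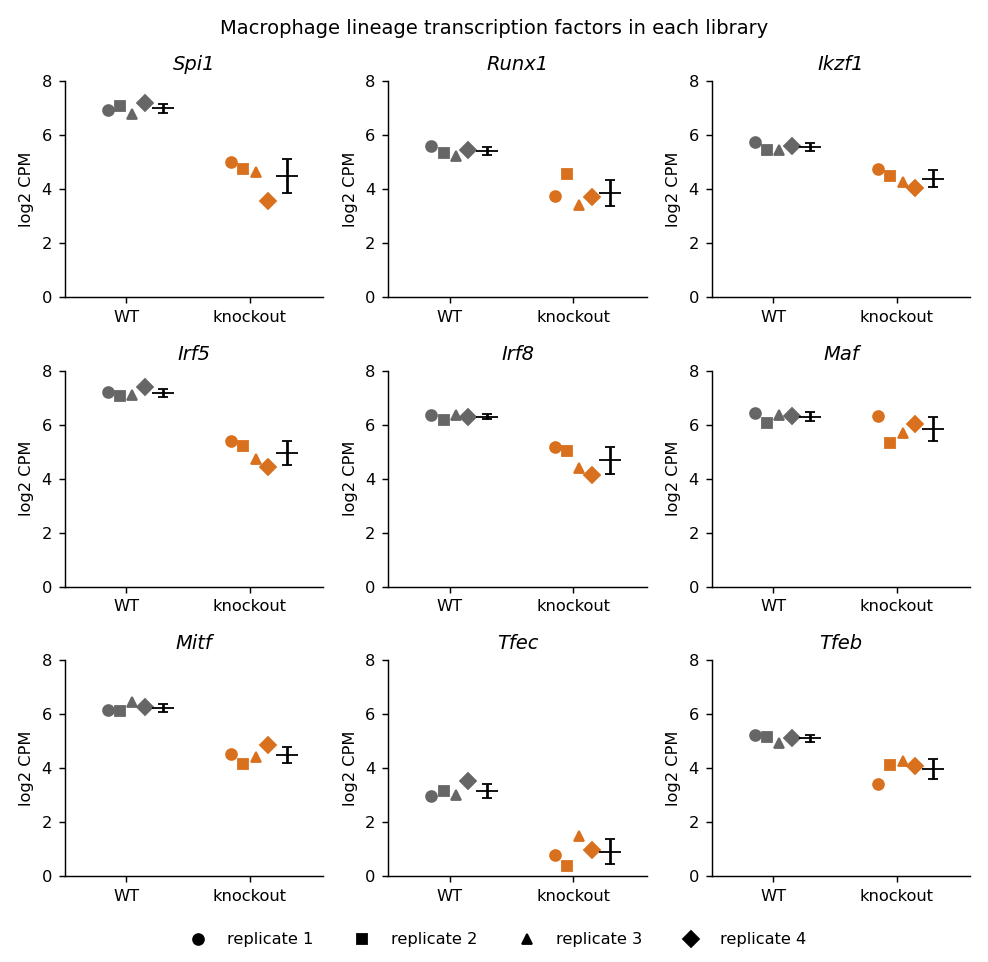
Log2 CPM of the 9 members in each library (points, shaped by replicate number), 4 WT (grey) and 4 knockout (orange), with the group mean and SD (bar). The 4 knockout points lie below the 4 WT points in 8 panels, while those of Maf overlap.

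Spi1 had the largest change of the 9 over all libraries, but its rank above Tfec and Irf5 was not settled. It stood at 6.94, 7.09, 6.79 and 7.17 in WT replicates 1 to 4, and at 5.0, 4.75, 4.62 and 3.56 in the knockout replicates in the same order. All knockout values were lower than all WT values, and knockout replicate 4 lay lowest. The group levels were 7.0 ± 0.17 in WT and 4.48 ± 0.63 in the knockout, a change of −2.52 ± 0.28 (limma adjusted p = 0.000214), or 5.72-fold lower. These values rest on 500 to 2100 reads per library in WT and 119 to 2071 in the knockout. The limma intervals of Spi1 (−3.14 to −1.89), Tfec (−2.91 to −1.62) and Irf5 (−2.7 to −1.78) overlapped. With 1 library left out, the Spi1 change ran from −2.69 to −2.21 and the Tfec change from −2.46 to −2.08. Spi1 differed less than Tfec in the libraries with more ribosomal RNA (−1.97 and −2.38). It differed more in those with less (−2.78 and −2.22).

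Runx1, which encodes the DNA-binding subunit of core-binding factor, stood at 5.58, 5.33, 5.24 and 5.45 in WT and at 3.76, 4.55, 3.40 and 3.70 in the knockout. Knockout replicate 2 lay above the other knockout libraries but under every WT library. The change was −1.55 ± 0.23 (limma adjusted p = 0.000942), or 2.93-fold lower. Its 3′ UTR is the one with 2 seed matches, whose part in the change was not tested. Members with no match changed by −2.52 (Spi1) to −0.46 (Maf). Ikzf1 stood at 5.74, 5.45, 5.45 and 5.59 in WT and at 4.75, 4.49, 4.26 and 4.05 in the knockout. Its groups did not overlap, and the change of −1.17 ± 0.16 (limma adjusted p = 0.00061) was 2.25-fold.

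Both interferon regulatory factors fell. Irf5 stood at 7.20, 7.05, 7.09 and 7.38 in WT and at 5.40, 5.22, 4.72 and 4.43 in the knockout. Irf8 stood at 6.36, 6.17, 6.36 and 6.28 in WT and at 5.19, 5.02, 4.38 and 4.14 in the knockout. In both genes knockout replicates 1 and 2 were higher than knockout replicates 3 and 4, and neither gene's groups overlapped. Irf5 changed by −2.24 ± 0.20 (limma adjusted p = 8.48e-05), or 4.73-fold lower. Irf8 changed by −1.61 ± 0.22 (limma adjusted p = 0.000664), or 3.05-fold lower.

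Maf, a large MAF factor of resident macrophages that T cells and other cells also use, did not pass. It stood at 6.44, 6.05, 6.35 and 6.33 in WT and at 6.31, 5.32, 5.70 and 6.04 in the knockout. Knockout replicate 1 lay inside the WT range and the other 3 knockout libraries lay below it, so the groups overlapped. The difference was −0.46 ± 0.20 with a 95% interval of −0.91 to −0.00152 (limma adjusted p = 0.101). It passed without knockout replicate 1 (−0.61, adjusted p = 0.0233), with array weights (−0.52, adjusted p = 0.0214) and with the replicate number as a block (−0.46, adjusted p = 0.0352). It was smaller without knockout replicate 2 (−0.28, adjusted p = 0.208) and with a covariate for ribosomal RNA class (−0.22, adjusted p = 0.381).

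The MiT/TFE factors all fell. Mitf, the factor of melanocytes, mast cells and osteoclasts that macrophages also express, stood at 6.16, 6.11, 6.44 and 6.29 in WT and at 4.55, 4.15, 4.43 and 4.87 in the knockout. Its change was −1.75 ± 0.16 (limma adjusted p = 8e-05). The part of the 1 seed match in its 3′ UTR was not tested. Tfec, the family member largely limited to macrophages and osteoclasts, stood at 2.99, 3.18, 3.0 and 3.54 in WT and at 0.80, 0.37, 1.5 and 0.99 in the knockout. It had the fewest reads of the 9, with 32 to 139 per library in WT and 6, 99, 102 and 40 in the knockout, so its level in knockout replicate 1 rests on 6 reads. Tfec changed by −2.26 ± 0.29 (limma adjusted p = 0.000421), or 4.81-fold lower. Tfeb, the broadly expressed regulator of lysosome formation, stood at 5.24, 5.16, 4.93 and 5.14 in WT and at 3.44, 4.12, 4.27 and 4.07 in the knockout. Knockout replicate 1 was lowest for Tfeb, whereas it was highest for Spi1, Ikzf1, Irf5, Irf8 and Maf. The Tfeb change was −1.14 ± 0.18 (limma adjusted p = 0.00149), or 2.21-fold lower.

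The libraries also split by ribosomal RNA, so each difference was taken within the class with more (3 WT, 1 knockout) and the class with less (1 WT, 3 knockout), with no error, since 1 of the groups is 1 library in either class. Spi1 differed by −1.97 and −2.78, Irf5 by −1.83 and −2.26, and Irf8 by −1.14 and −1.66. Runx1 differed by −1.67 and −1.44, and Ikzf1 by −0.84 and −1.18. For Mitf the values were −1.75 and −1.62, for Tfec −2.38 and −2.22, and for Tfeb −1.67 and −1.0. All 8 called members were lower in both classes. Maf differed by −0.07 and −0.37.

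Levels were compared between members per length of exon, as RPKM, reads scaled to library total and exon length (lengths from GENCODE M21). In WT fat Spi1 (63.2 ± 7.29 RPKM) and Irf5 (55.1 ± 5.83) were highest, and their ranges over the 4 mice overlapped. Irf8 (22.8 ± 1.35) and Mitf (14.3 ± 1.47) followed, each apart from its neighbours. Maf (9.57 ± 1.06), Tfeb (8.66 ± 0.76) and Ikzf1 (8.46 ± 0.83) overlapped one another, as did Runx1 (5.68 ± 0.59) and Tfec (5.09 ± 0.97) at the bottom. In the knockout the order was Irf5 (12.0 ± 3.56 RPKM), Spi1 (11.7 ± 4.2), Irf8 (7.81 ± 2.64), Maf (7.17 ± 2.05), Mitf (4.32 ± 0.90), Tfeb (4.0 ± 0.93), Ikzf1 (3.81 ± 0.79), Runx1 (2.02 ± 0.77) and Tfec (1.07 ± 0.37). There the ranges of every pair of neighbours in the order overlapped. The mean of Maf was below that of Mitf in WT and above it in the knockout.

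Macrophage markers moved with the members. Of 20 pan-macrophage markers 19 fell and 0 rose, with a median change of −2.34, where 16.1% of all tested genes fell and 22.7% rose. Together the markers took 1.32% to 1.48% of reads in WT and 0.236% to 0.343% in the knockout. None of the 20 was at 0 in any library. Their mean log2 level was 8.46 ± 0.07 in WT and 6.24 ± 0.19 in the knockout, a difference of −2.22. In bulk tissue, fewer macrophages and less of a transcript in each macrophage cannot be told apart. Each member was therefore also compared with these markers inside the same library, by subtracting the marker mean before the fit, which removes library scaling.

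Against the macrophage markers the members split. For Spi1, Irf5 and Tfec no difference from the markers' mean fall passed the test. Maf, Tfeb, Ikzf1, Runx1 and Irf8 were higher relative to the marker mean. In this fit 5 of 9 members were higher relative to the markers and 0 lower (0 also at an unadjusted p under 0.05 in limma, and 0 with voom), whereas 93.9% of all tested genes were higher and 0.884% lower. Read against 93.9% of all genes, 5 of 9 is not a result in favour of the members, and the values below describe how far each member followed the marker mean. Single markers spread widely around that mean. On log2 CPM they changed by −3.24 (Cd68) to −0.21 (Mertk), a range that holds all 9 members. Relative to the mean, the marker Csf1r differed by 0.71 ± 0.13 and the marker Adgre1 by −0.68 ± 0.15. Irf8 and Runx1 thus lay no further above the mean than Csf1r. Irf5 differed from the markers by −0.02 ± 0.17 (95% interval −0.398 to 0.362, limma adjusted p = 0.92). Spi1 differed by −0.29 ± 0.22 (−0.786 to 0.198, adjusted p = 0.219), and by −0.06 without knockout replicate 4, its lowest library. Tfec differed by −0.04 ± 0.32 (−0.759 to 0.675, adjusted p = 0.901). Mitf differed by 0.48 ± 0.21 (0.00288 to 0.949, adjusted p = 0.0515), and by 0.28 without knockout replicate 4 (adjusted p = 0.116).

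Most tested genes (93.9%) were higher on this scale, so the p-values here mark no gain particular to the members. Of the members, Maf stood furthest above the marker mean, with a relative difference of 1.77 ± 0.21 (limma adjusted p = 1.01e-05). Relative to the marker mean its log2 level was −2.05, −2.45, −2.0 and −2.18 in WT and −0.18, −0.89, −0.55 and 0.01 in the knockout, with no overlap. Tfeb differed by 1.08 ± 0.25 (adjusted p = 0.0015), and here knockout replicate 1 (−3.05) lay apart from the other knockout libraries (−2.08, −1.97 and −1.95) and near the WT libraries (−3.42 to −3.25). Ikzf1 differed by 1.05 ± 0.15 (adjusted p = 4.1e-05), with WT at −3.04 to −2.75 and the knockout at −1.98 to −1.71. Irf8 differed by 0.61 ± 0.19 (adjusted p = 0.011) and Runx1 by 0.67 ± 0.25 (adjusted p = 0.0246). Because most tested genes passed in this fit, adjustment moved these p-values little (limma unadjusted p = 0.0101 for Irf8 and 0.0231 for Runx1). The Runx1 call was lost without WT replicate 2, 3 or 4 (adjusted p = 0.0539, 0.0564 and 0.0513) or knockout replicate 2 (0.43, adjusted p = 0.0574), and its value was 0.24 without the 3 libraries with the most epididymis reads. That call was also lost with array weights (0.46, adjusted p = 0.0577) and with a covariate for ribosomal RNA class (0.60, adjusted p = 0.0613). Without WT replicate 2 and knockout replicate 2 together Runx1 was at 0.39 (adjusted p = 0.156). The Irf8 call was lost without WT replicate 2 and knockout replicate 2 together (0.44, adjusted p = 0.104).

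**Figure D2:**
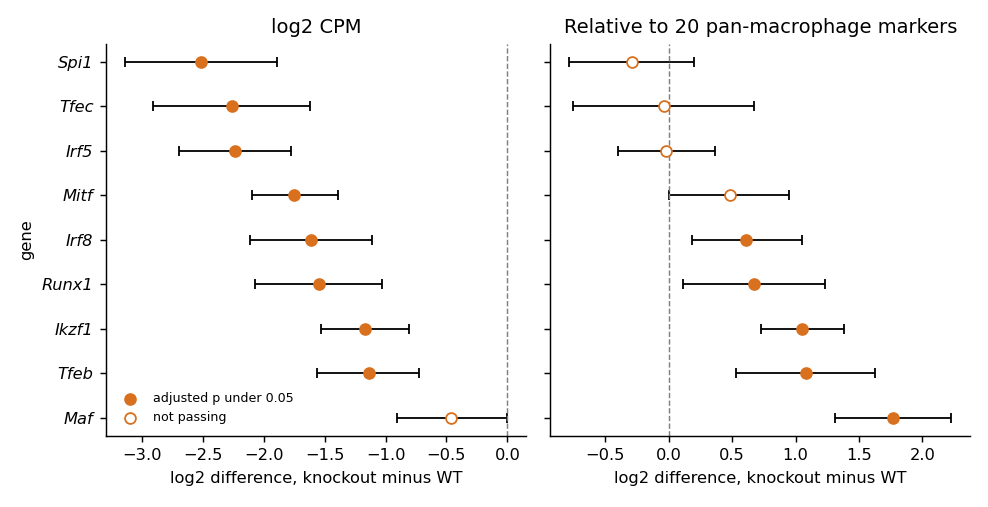
Difference between knockout and WT (log2, points, with the 95% interval of limma) for the 9 members, on log2 CPM (left) and after subtraction of the mean of 20 pan-macrophage markers in each library (right). On the left 8 members lie under 0 and pass, and on the right Spi1, Tfec and Irf5 lie near 0 (−0.29 to −0.02) and Maf lies highest at 1.77.

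Members of 1 family were compared directly by the difference of their log2 CPM inside each library, for 4 pairs, with the exact two-sided permutation test over the 8 samples (the smallest p it can give is 0.0286) and adjustment over the 5 pairs planned. Adjusted over the 4 pairs given here, the smallest value is 0.0571, so both calls below are lost with that choice. Tfec fell more than Tfeb. The difference Tfec minus Tfeb was −2.25, −1.98, −1.93 and −1.60 in WT and −2.64, −3.75, −2.77 and −3.08 in the knockout, a shift of −1.12 (exact p = 0.0286, adjusted p = 0.0476). Irf5 fell more than Irf8, since Irf8 minus Irf5 went from −0.89 ± 0.15 to −0.26 ± 0.07, a shift of 0.63 (exact p = 0.0286, adjusted p = 0.0476). The groups of both pairs did not overlap.

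The shifts of Tfec minus Mitf (−0.52, exact p = 0.0857, adjusted p = 0.107) and Mitf minus Tfeb (−0.61, exact p = 0.114, adjusted p = 0.114) did not pass, and both pairs overlapped between the groups.

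**Figure D3:**
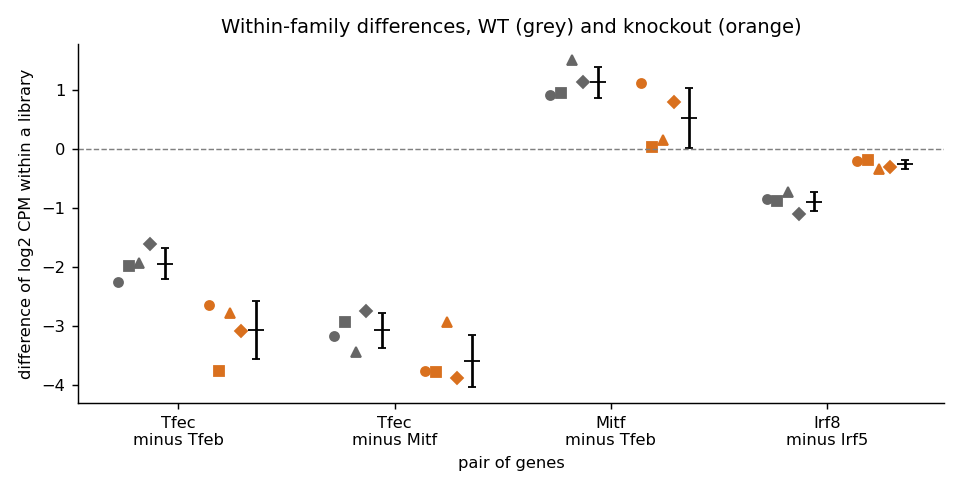
Difference of log2 CPM between 2 genes of a family within each library (points, shaped by replicate number), 4 WT (grey) and 4 knockout (orange), with the mean and SD (bar). The groups do not overlap for Tfec minus Tfeb and Irf8 minus Irf5, where the knockout means are −3.06 and −0.26.

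Few relatives of the members changed. Of 19 tested relatives 2 fell and 1 rose, where 16.1% of all tested genes fell and 22.7% rose. The median change of the relatives was 0.17, close to the 0.18 of all genes. None of 6 other interferon regulatory factors passed, with changes between −0.28 (Irf2) and 0.53 (Irf3), and Irf3 at 0.53 ± 0.19 was nearest (limma adjusted p = 0.051). At an unadjusted p under 0.05, Irf2 was lower and Irf3 higher. Irf3 passed without WT replicate 2 (0.60, adjusted p = 0.0471) or without knockout replicate 1 (0.67, 0.015) or 2 (0.61, 0.0432). Irf2 passed as lower without knockout replicate 1 (−0.34, adjusted p = 0.0295) and with voom (−0.45, adjusted p = 0.0296), and with array weights 4 relatives fell and 2 rose. The small MAF factors Maff, Mafg and Mafk, which lack a transactivation domain, differed by −0.22, 0.11 and 0.22 without passing. Tfe3, the fourth MiT/TFE factor, fell by 0.60 ± 0.13 on the log2 scale (adjusted p = 0.00734), and it was the most abundant of that family in both groups on the scale per exon length (26.5 ± 2.23 and 17.6 ± 3.05 RPKM). Cbfb, the partner that RUNX proteins need to bind DNA firmly, changed by −1.32 ± 0.16 (adjusted p = 0.000365), while Runx2 (−0.98 ± 0.57) and Runx3 (0.35 ± 0.46) did not pass.

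In the Ikaros family Ikzf1 fell, while Ikzf2, which encodes Helios, a factor of regulatory T cells, rose. Ikzf2 went from 1.73 ± 0.51 to 3.04 ± 0.35 (1.31 ± 0.30, limma adjusted p = 0.00876). It rests on few reads, 10 to 81 per library in WT and 27 to 658 in the knockout. Its difference was 1.37 in the class with more ribosomal RNA and 0.69 in the class with less. Ikzf3, Ikzf4 and Ikzf5 differed by 0.69, 0.88 and 0.20 without passing. The Ets factors Spib and Spic, relatives of Spi1, differed by 0.28 and −0.75 without passing.

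**Figure D4:**
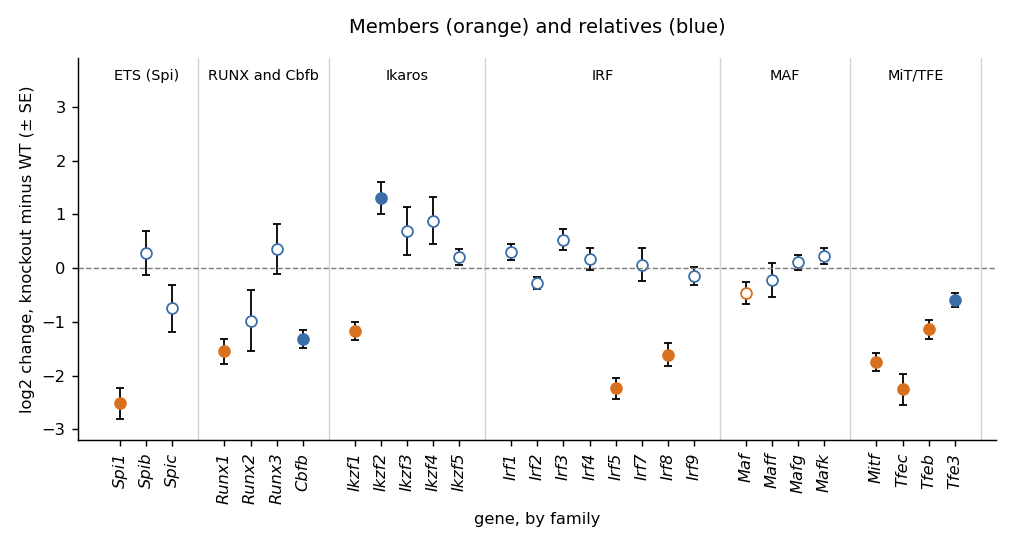
Log2 change (knockout minus WT, ± SE of limma) of the 9 members (orange) and 19 relatives (blue), by family, with filled points at an adjusted p under 0.05. Filled points under 0 are 8 members with Tfe3 and Cbfb, and Ikzf2 is the filled point above 0 at 1.31.

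Promoters were examined for letters that the members' own products are known to bind. RefSeq (GRCm38.p6) gave 14 start sites for 7 members (Ikzf1, Irf5, Irf8, Mitf, Runx1, Tfeb and Tfec), each as 300 bases that end 50 bases past the start. Both strands were searched, and shares are over 32851 promoters of the same length. The PU.1 letters GAGGAAGT were in 0 of the 14, against 3.2% of all promoters. The E-box CACGTG was in 1 (Runx1), against 7.15%, and the M-box CATGTG in 0, against 14.2%. The Ikaros letters TGGGAA were in 4 (of Irf5, Irf8 and Tfeb), against 25.6%. The RUNX letters TGTGGT were in 3, of Runx1, Mitf and Tfec, against 16.8%. These 3 promoters are printed to show those letters, which are in capitals and read ACCACA on the strand shown. These letters overlap none of the other motifs in the 3 sequences. A match is not evidence of binding, and no match says only that these letters are absent from the window.

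Runx1, chr16:92826025-92826324, minus strand: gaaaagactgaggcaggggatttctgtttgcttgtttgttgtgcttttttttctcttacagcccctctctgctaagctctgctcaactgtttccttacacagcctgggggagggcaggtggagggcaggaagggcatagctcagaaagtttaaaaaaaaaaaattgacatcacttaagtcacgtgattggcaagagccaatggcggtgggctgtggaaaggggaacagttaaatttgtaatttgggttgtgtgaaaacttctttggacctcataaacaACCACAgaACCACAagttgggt

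Mitf, chr6:97806808-97807107, plus strand: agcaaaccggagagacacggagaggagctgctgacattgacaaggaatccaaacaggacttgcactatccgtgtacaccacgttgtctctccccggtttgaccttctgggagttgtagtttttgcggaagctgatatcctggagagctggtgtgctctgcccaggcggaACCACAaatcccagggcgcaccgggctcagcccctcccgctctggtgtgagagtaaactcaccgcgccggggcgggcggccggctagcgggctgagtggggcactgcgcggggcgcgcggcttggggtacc

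Tfec, chr6:16898392-16898691, minus strand: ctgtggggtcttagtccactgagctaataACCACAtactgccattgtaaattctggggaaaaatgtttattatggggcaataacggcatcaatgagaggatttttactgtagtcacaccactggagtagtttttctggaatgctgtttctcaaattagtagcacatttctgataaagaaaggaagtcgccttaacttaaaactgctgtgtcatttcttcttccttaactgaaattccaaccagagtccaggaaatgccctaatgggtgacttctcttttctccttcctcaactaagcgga

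The Runx1 promoter holds 2 matches close together, starting at bases 279 and 287 of the 300, and it is the upstream of the 2 Runx1 starts given. The Mitf match starts at base 170 of the first of 3 Mitf starts, and the Tfec match at base 30. The expression table gives 1 value per gene, so the start sites in use were not measured.

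Genes that PU.1 is known to activate fell with Spi1. Of 15 tested, 13 fell and 0 rose (0 also at an unadjusted p under 0.05 in limma and with voom), with a median of −2.25 against 0.18 for all genes. The shares of all tested genes were 16.1% lower and 22.7% higher. The scavenger receptor Msr1 changed by −3.08 ± 0.17 (limma adjusted p = 1.17e-05) and the integrin chains Itgb2 and Itgam by −3.18 ± 0.26 and −2.40 ± 0.21. Csf1r, the receptor for the macrophage growth factor, changed by −1.52 ± 0.12, and lysozyme (Lyz2) by −2.39 ± 0.19. Csf3r (−0.56 ± 0.25) and Il1b (−0.52 ± 0.54) did not pass. Of these 15 genes 6 are also among the 20 pan-macrophage markers, so the lists are not independent of each other.

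While 16.1% of all tested genes fell and 22.7% rose, 10 tested genes lay around Irf5 and Irf8. Of these 10, 5 fell and 0 rose (0 with voom), with a median of −0.65. The 5 that fell were Tlr7, the endosomal RNA receptor (−1.89 ± 0.15), Unc93b1, the chaperone of endosomal Toll-like receptors (−1.52 ± 0.15), the kinase Irak4 (−0.85 ± 0.16), the lysosomal transporter Slc15a4 (−0.45 ± 0.14) and the cytokine Tnf (−2.38 ± 0.35). The Slc15a4 call (limma adjusted p = 0.0271) was lost without WT replicate 1, 2 or 4 or knockout replicate 2, where its change ran from −0.47 to −0.39. It was also lost with the replicate number as a block (−0.45, adjusted p = 0.064) and without WT replicate 2 and knockout replicate 2 together (−0.39, adjusted p = 0.118). The adaptors and kinases Myd88 (−0.17), Irak1 (0.22), Traf6 (0.01) and Ikbkb (−0.14) did not pass. Nor did the receptor Tlr9, at −0.86 ± 0.37 (limma unadjusted p = 0.042, adjusted p = 0.0892). The cytokines Il12b and Il6 lay under the filter on low values, at mean log2 CPM of −0.48 and 0.16 in WT and −2.65 and −2.40 in the knockout. They rest on 30 and 35 WT reads and 27 and 25 reads of the deeper knockout libraries, and with no filter 7 genes of the list fell.

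Lysosome and autophagy genes that MiT/TFE factors bind fell more often than they rose. Of 26 tested, 18 fell and 3 rose, with a median of −0.62, where 16.1% of all tested genes fell and 22.7% rose. The galactosidase Gla changed by −2.57 ± 0.19, the protective protein Ctsa by −1.69 ± 0.12, the hexosaminidase chain Hexa by −1.71 ± 0.12 and the peptidase Tpp1 by −1.22 ± 0.09 (limma adjusted p = 3.44e-05 for Tpp1). The 3 that rose, named after their values were seen, were the cathepsin Ctsf (0.56 ± 0.14), the glucosidase Gaa (0.34 ± 0.09) and the autophagosome protein Map1lc3b (0.46 ± 0.14). After median centring, and with voom, 1 of the 26 rose and 19 fell. Of all 13797 tested genes 2825 fell and 2444 rose with centring, and 2964 fell and 2414 rose with voom. Without the 3 libraries with the most epididymis reads 13 fell and 1 rose.

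Genes that Mitf activates in osteoclasts were also measured. Of 6 tested, 5 fell and 1 rose, with a median of −3.69, where 16.1% of all tested genes fell and 22.7% rose. The glycoprotein Gpnmb changed by −4.36 ± 0.41, the proton pump subunit Atp6v0d2 by −4.12 ± 0.48, the protease Ctsk by −3.73 ± 0.20, the fusion protein Dcstamp by −3.64 ± 0.49 and Ostm1, a partner of the Clcn7 chloride transporter, by −0.71 ± 0.13. The 1 that rose, named after its value was seen, was the acid phosphatase Acp5 (0.62 ± 0.13).

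Among 12 tested regulators that hold MiT/TFE proteins in the cytoplasm or release them from it, 4 fell and 1 rose, with a median of −0.05. Of all tested genes 16.1% fell and 22.7% rose. Fnip2, a folliculin partner, changed by −2.48 ± 0.15 (limma adjusted p = 1.64e-05) and its paralog Fnip1 by −0.84 ± 0.12, while folliculin itself (Flcn) differed by −0.06 ± 0.20. Rragd, a Rag GTPase that is also a MiT/TFE target, changed by −1.36 ± 0.29 and the calcineurin chain Ppp3ca by −0.67 ± 0.11. Mtor rose by 0.54 ± 0.13, and with voom and median-ratio size factors its change was 0.37 (adjusted p = 0.0524).

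Among 20 other tested myeloid transcription factors 4 fell and 4 rose, with a median of −0.07. These counts are near the shares of all tested genes, of which 16.1% fell and 22.7% rose. Atf3, a stress-induced repressor, changed by −3.42 ± 0.32 (limma adjusted p = 0.000101), Bach1 by −0.99 ± 0.10 and Mef2c by −0.85 ± 0.14. Cebpa, which fat cells also need, rose by 1.32 ± 0.20 (adjusted p = 0.00117) and Id3 by 1.11 ± 0.20. After median centring 6 fell and 2 rose, where 2825 of all 13797 tested genes fell and 2444 rose.

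**Figure D5:**
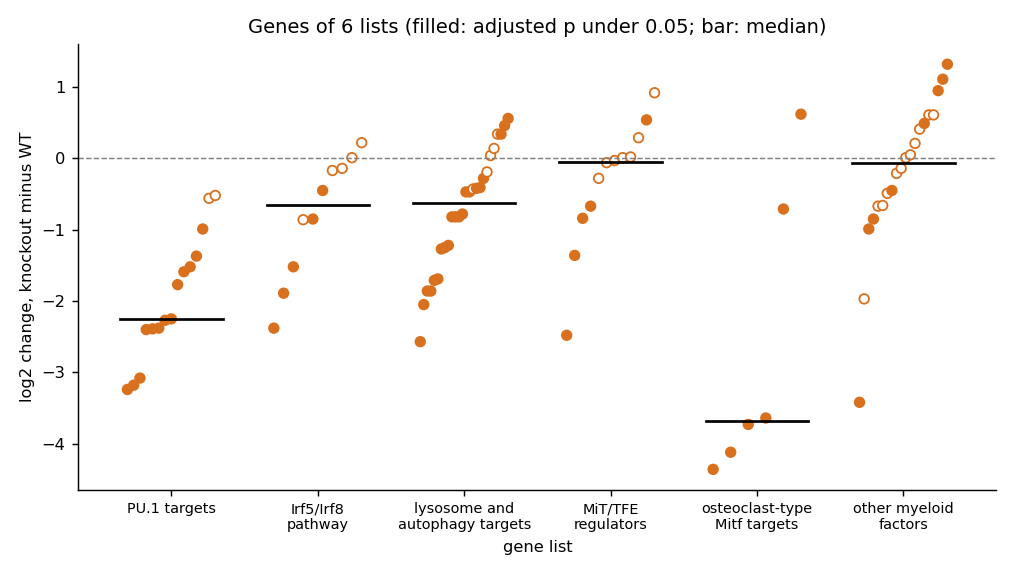
Log2 change (knockout minus WT) of each tested gene of 6 lists (points, filled at an adjusted p under 0.05), with the list median (bar). The medians are −2.25 for PU.1 targets, −0.65 for the Irf5 and Irf8 pathway, −0.62 for lysosome and autophagy targets, −0.05 for MiT/TFE regulators, −3.69 for osteoclast-type Mitf targets and −0.07 for other myeloid factors.

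Other cell types also use some of the members, and their markers are given beside the results. Their counts stand beside shares of 16.1% lower and 22.7% higher over all tested genes. Mast cells express Mitf, Ikzf1 and Runx1, and 5 of 7 tested mast cell markers fell (median −2.88), from 0.0182% to 0.0431% of reads in WT to 0.00416% to 0.00899% in the knockout. The mast cell protease Mcpt4 changed by −3.02 ± 0.37, while Kit differed by 0.20 without passing. Their part in the fall of these members was not tested. B cells express Spi1, Irf8 and Ikzf1, and 0 of 4 tested B cell markers passed (0 also at an unadjusted p under 0.05 in limma), at 0.000647% to 0.0013% of reads in WT and 0.000856% to 0.00173% in the knockout. T cells express Runx1, Ikzf1 and Maf, and 0 of 6 T cell markers passed, with a median of 0.77 (2 were higher at an unadjusted p under 0.05 in limma, and 1 passed with voom or without knockout replicate 1, 2 with array weights and 3 with no variance trend) and shares of 0.000511% to 0.00098% in WT and 0.00102% to 0.00144% in the knockout.

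Dendritic cells depend on Irf8. Of 4 conventional dendritic cell markers 0 fell and 1 rose, the lectin Cd209a (1.48 ± 0.28), which monocyte-derived cells also express, while Xcr1 and Clec9a differed by −0.76 and −0.59 without passing. The 2 measured genes of the plasmacytoid list, Siglech and Tcf4, differed by 0.28 and −0.09 without passing. Siglech lay low (0.65 ± 0.44 in WT, on 54 reads) and Tcf4 far higher (6.7 ± 0.14 in WT). Whether the Tcf4 value reflects plasmacytoid cells was not tested. Melanocyte markers took at most 0.00108% of reads in any library, with Tyr and Mlana at 0 in at least 1 library, and neutrophil markers at most 0.00716%. All 7 fat cell markers rose (median 2.13), as did 4 of 4 endothelial and 3 of 4 mesothelial markers. Of 5 tested red blood cell genes 2 rose, but 0 to 5 did with 1 library left out (2 to 4 of the mesothelial markers), 0 without any 1 WT library or knockout replicate 3 or 4, 4 without knockout replicate 1 and 5 without knockout replicate 2. The red blood cell genes took 0.0276% to 0.0465% of reads in WT and 0.0419% to 1.19% in the knockout. The part of these cell types in the members' values was not tested.

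Likeness between members was also described inside the groups, as the Pearson correlation of deviations from the group mean over the 8 libraries. These values share library depth and composition and carry no test. Each member varied more among the knockout libraries than among the WT libraries, so r leans on the knockout. Irf5, Irf8, Ikzf1 and Spi1 varied together, with r = 0.94 for Irf5 and Irf8, 0.92 for Irf5 and Ikzf1 and 0.78 for Spi1 and Irf8, the lowest among these 4 genes. Runx1 and Tfec had the most negative value (r = −0.77). Spi1 and Mitf also varied in opposite directions (r = −0.70), as did Maf and Tfeb (r = −0.65), and Maf and Mitf together (r = 0.70). Among the tested genes, with members and predicted genes (Gm and Rik symbols) left out, those most like Spi1 were the phospholipid transfer protein Pltp (r = 0.99), Cyth4 (0.99) and the nucleotide receptor P2ry6 (0.98). Those most like Irf8 were Casc5, Dock8 and Elf1 (r = 0.995, 0.993 and 0.992), and Tfec was most like the serotonin receptor Htr2b (0.98). These were picked as the highest of the 13797 tested genes less those left out.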

How the data were processed

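Stranded polyA libraries were read as 75-base single ends, per the labels' protocols, and the submitters' processing notes name Trimmomatic, TopHat2, featureCounts and limma, and the build mm9, without versions. The authors deposited voom log2 CPM values of 16505 genes, keyed by symbol and scaled to library totals. Columns were matched to samples by title. Each column's lowest value stands for 0 reads, which gave the library totals and whole reads; 100% of values lay no more than 0.01 read from a whole one.

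The test covered the 13797 genes whose log2 CPM averaged 0 or more, with limma 3.58.1 in R 4.3.3 (lmFit, eBayes with trend, group as the only term, two-sided, Benjamini-Hochberg over all tested genes at 0.05). The fit was repeated after subtraction of the mean of the 20 pan-macrophage markers. Pairs were tested with scipy 1.17.1. A planned pair, and some genes of the list of relatives, are not reported here. The limma test of knockout against WT was tried on simulated reads (13776 genes). It called 89.6% of genes changed 2-fold, 100% of those changed 4-fold and 0.0957% of unchanged genes. Far fewer genes were changed there than passed in the data. The fit relative to the markers and the tests of pairs were not simulated. The members, lists, tests and alternatives were chosen with earlier results of these data known. The genes named are the 9 members, up to 5 tested genes of each list with the smallest p, relatives that passed, genes given as not passing for contrast, and exceptions marked as such. The sequences come from tables of GRCm38, not mm9, and no position was taken from the expression table. Replicate numbers are shared by the groups, but 1 of the 4 same-numbered pairs did not vary together (r −0.36 to 0.79), so they were not treated as pairs. Plots were drawn with matplotlib 3.10.9.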

Additional observations from a re-analysis of the deposited data

Results flagged for a closer look

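In the knockout, 1 library stood apart from the other 3 in the difference Tfec minus Mitf. Knockout replicate 3 was at −2.93 and the others at −3.75, −3.78 and −3.88, so that the gap took a share of 0.865 of the group's range, above the limit that Dixon's test sets for 4 samples. It was the only one of 26 groups of 4 values checked, and chance flags about 1 in 20.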

How the results depend on the processing

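The fits of the libraries with less ribosomal RNA, and without the 3 libraries with most epididymis reads, were chosen after seeing the data. Under 23 alternatives, 207 member changes kept their direction. Of these, 8 lost their call in the 4 libraries with less ribosomal RNA, and Maf passed in 3 (array weights, without knockout replicate 1, and −0.46 with the replicate block, adjusted p = 0.0352). With 1 library left out, 8 to 9 members fell and 0 rose, and 4 to 6 were higher relative to the markers. Relative to the markers, 3 members were higher without WT replicate 2 and knockout replicate 2 and in the libraries with less ribosomal RNA. In those 4 libraries, with 1 WT library, 0 genes passed, so the members that fell and the genes that fell or rose in every list numbered 0.

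Relative to the markers Irf5, near 0, was at 0.11 with a covariate for ribosomal RNA class, 0.01 with one for the epididymis level, 0.08 in the libraries with less ribosomal RNA, 0.02 with thinned reads, and between −0.12 and 0.08 with 1 library left out. Tfec was at 0.39 with log2(CPM + 1), 0.26 with array weights, 0.11 without WT replicate 2 and knockout replicate 2, 0.05 without the 3 libraries with most epididymis reads, 0.12 in the libraries with less ribosomal RNA, and between −0.23 and 0.13 with 1 library left out. Mitf passed in 8 alternatives, among them voom (0.52, adjusted p = 0.0392). The cause of these shifts was not tested.

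Of the relatives, 4 fell and 2 rose with array weights. 2 rose with a filter at 2, with the replicate block, with the ribosomal RNA covariate, and without WT replicate 2 and knockout replicate 2, and 1 to 2 with 1 library left out (2 to 3 fell). Of other myeloid factors 2 rose with median centring and with voom, and 2 to 4 with 1 library left out (3 to 5 fell). Of lysosome targets 1 rose with centring, voom, or without the 3 libraries with most epididymis reads, and 2 to 3 rose and 15 to 17 fell with 1 library left out. Of MiT/TFE regulators 0 rose with voom.

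With 1 library left out the shift of Tfec minus Tfeb ran from −1.26 to −0.89 and that of Irf8 minus Irf5 from 0.56 to 0.68, each in 1 direction, and neither passed, because the exact test with 7 samples cannot give a p under 0.0571. The replicate block left 8 members lower and added Maf. Tfec rests on few reads, 6 in the shallowest library, and reads cover counting error only.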
